A study of Homo sapiens with 8 samples.

Results

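The 37 genes of the human mitochondrial genome and 7 nuclear copies of mitochondrial protein genes on chromosome 1 were followed through pulldowns of RNA with biotinylated microRNA duplexes. The 44 rows were taken by Ensembl ID out of a count table of 60666 gene rows, and all 44 were present in it. They comprised 13 mRNAs, 2 rRNAs, 22 tRNAs and 7 pseudogenes. The table itself gives no gene names, so symbols come from a list pairing these 44 IDs with names. The cells were 786-0, an established line derived from a human clear cell renal carcinoma, and every library came from the same line after 48 h with a duplex. The 3 control libraries received a control microRNA duplex, whose sequence is not given in the sources used here, 2 libraries received miR-2355 and 3 received miR-1271. The stated purpose was to identify targets of these microRNAs by what their duplexes pull down. The labelled epithelial identity was not checked against marker genes, because the other rows are not paired with names here. All values are shares of the RNA that was recovered, so a changed level in the cells and a changed recovery cannot be told apart.

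The mitochondrial genome is a small circle that is transcribed from both strands into long precursors. The tRNAs lie between most of the other genes and are cut out, which releases the mRNAs and the rRNAs. The mRNAs encode core subunits of the respiratory chain and of ATP synthase, and the rRNAs and tRNAs serve the ribosomes that translate them inside the organelle. Pieces of mitochondrial DNA have also been inserted into the nuclear chromosomes in the course of evolution. Such inserts carry pseudogenes that can be nearly identical to the mitochondrial genes, and short reads from either may be placed on the other.

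The mature microRNAs are shown because the comparisons are defined by them. Capitals mark the seed, bases 2 to 8 from the 5′ end, through which a microRNA in an Argonaute protein usually pairs with its targets. Both sequences are those of RefSeq on GRCh38.p14. miR-2355-5p lies at chr2:207110043-207110063 on the minus strand within the bounds of KLF7, and miR-1271-5p at chr5:176367960-176367981 on the plus strand within those of ARL10.
miR-2355-5p: aUCCCCAGauacaauggacaa
miR-1271-5p: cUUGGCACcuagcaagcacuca
The sites that pair with these seeds are CUGGGGA and GUGCCAA. The seeds differ, so the microRNAs do not share a seed family. Whether the mitochondrial transcripts or their copies hold such sites was not analysed here.

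Library totals ran from 4122875 reads in control replicate 2 to 22864693 in control replicate 1. Tests used edgeR's quasi-likelihood model over all 17351 rows that passed its filter on low counts, with libraries scaled by TMM, and a row was called at a Benjamini-Hochberg adjusted p under 0.05. Separate cultures are not stated for the libraries within a group, and p-values therefore cover only their spread, part of which may be technical. miR-1271 replicate 2 stood apart from the other libraries in the TMM-scaled level of all 7 copies, and results that rest on it are given with and without it. Of the 44 rows, only the 7 nuclear copies passed the filter.

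All 37 rows of the mitochondrial genome were listed at 0 reads in every one of the 8 libraries. This held for the mRNAs of complex I, the NADH dehydrogenase (MT-ND1, MT-ND2, MT-ND3, MT-ND4L, MT-ND4, MT-ND5 and MT-ND6), and for MT-CYB, the cytochrome b of complex III. It held for MT-CO1, MT-CO2 and MT-CO3, which encode the catalytic core of cytochrome c oxidase, and for MT-ATP6 and MT-ATP8 of ATP synthase. MT-RNR1 and MT-RNR2, the rRNAs of the small and large mitochondrial ribosomal subunits and usually among the most abundant RNAs of a cell, stood at 0 as well. The 22 tRNAs, from MT-TF to MT-TP, did the same. The 12 mRNAs of the heavy strand and MT-ND6, the mRNA of the light strand, did not differ in this. No class can therefore be compared between the groups.

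By counting error alone, 0 reads would allow a level of up to 3 reads in a library's total, which is 0.131 CPM in control replicate 1 and 0.728 CPM in control replicate 2. Over the 115709626 reads of all libraries the limit is 0.0259 CPM. Genes that every cell uses are among these rows, so the zeros are given as listed values and not as levels of the RNAs. The 37 rows follow each other in the table, and the 59 rows after them, its last ones, were also at 0 in all libraries. Of the 60570 rows before the mitochondrial ones, 22672 (37.4%) had no read in any library. The sources used here do not say whether reads from the mitochondrial genome were aligned, removed or left uncounted.

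The 7 nuclear copies did hold reads. They lie together on chr1:629062-634922 (GRCh38.p14, RefSeq pseudogenes), a block of 5861 bases in which they follow the order of their mitochondrial genes. MTND1P23 (ENSG00000225972, chr1:629062-629440) is 379 bases long, 39.6% of the length of its mitochondrial gene. MTND2P28 (ENSG00000225630, chr1:629640-630686) is 1047 bases long and MTCO1P12 (ENSG00000237973, chr1:631074-632616) 1543, against 1042 and 1542 for MT-ND2 and MT-CO1. MTCO2P12 (ENSG00000229344, chr1:632757-633438), MTATP8P1 (ENSG00000240409, chr1:633535-633741) and MTATP6P1 (ENSG00000248527, chr1:633696-634376) have 682, 207 and 681 bases, and MTCO3P12 (ENSG00000198744, chr1:634376-634922) has 547, 69.8% of MT-CO3. The start of each copy from MTND2P28 to MTCO3P12 differs from the start of its gene on the mitochondrial genome by 625169 to 625171 bases, so the block keeps the spacing of the mitochondrial genes. MTATP8P1 and MTATP6P1 share 46 bases, the same overlap as between MT-ATP8 and MT-ATP6, which is 22.2% of MTATP8P1. How reads in that overlap were counted is not given in the sources used here. Since the 7 mitochondrial genes were at 0, no ratio of copy to mitochondrial gene could be formed, and reads of the copies cannot be told apart here from reads of mitochondrial RNA that were placed on them.

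Together the copies took 0.217% ± 0.006 (SD, n = 3) of the control reads, 0.169% ± 0.011 (SD, n = 2) of the miR-2355 reads and 0.198% ± 0.106 (SD, n = 3) of the miR-1271 reads. In the control libraries this was 50463, 8673 and 45557 reads, and in the miR-2355 libraries 30038 and 26449. The miR-1271 libraries held 14823, 35088 and 17261, or 0.143%, 0.320% and 0.132% of their totals. Both miR-2355 libraries lay under all controls, and the miR-1271 libraries lay on both sides of them.

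Most of these reads came from 3 of the copies. MTATP6P1, MTCO1P12 and MTND2P28, the copies of the ATP synthase subunit a gene, the first cytochrome c oxidase gene and the second NADH dehydrogenase gene, made up 92.8% to 93.8% of the reads in each library. Per kilobase of RefSeq length, the TMM-scaled level in the controls was 1423 ± 50.2 CPM (SD, n = 3) for MTATP6P1, 427 ± 25.8 for MTCO1P12 and 296 ± 5.51 for MTND2P28. MTND1P23 followed with 161 ± 17.1 CPM per kilobase, MTCO3P12 with 70.3 ± 10.5, MTCO2P12 with 55.0 ± 2.64 and MTATP8P1 with 14.4 ± 1.37. This order was the same in all 8 libraries. The closest neighbours in the controls, MTCO3P12 and MTCO2P12, did not overlap there (58.7 to 79.1 against 52.7 to 57.9). With miR-1271 the ranges of MTCO1P12 and MTND2P28 did overlap (280 to 725 against 252 to 644), although MTCO1P12 was higher in each library. MTATP6P1 and MTATP8P1, whose positions overlap, stood at opposite ends of the order. Among all rows of a library, counted without regard to length, MTATP6P1 ranked 58, 59 and 60 in the controls, 211 and 141 with miR-2355, and 193, 36 and 195 with miR-1271.

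**Figure D1:**
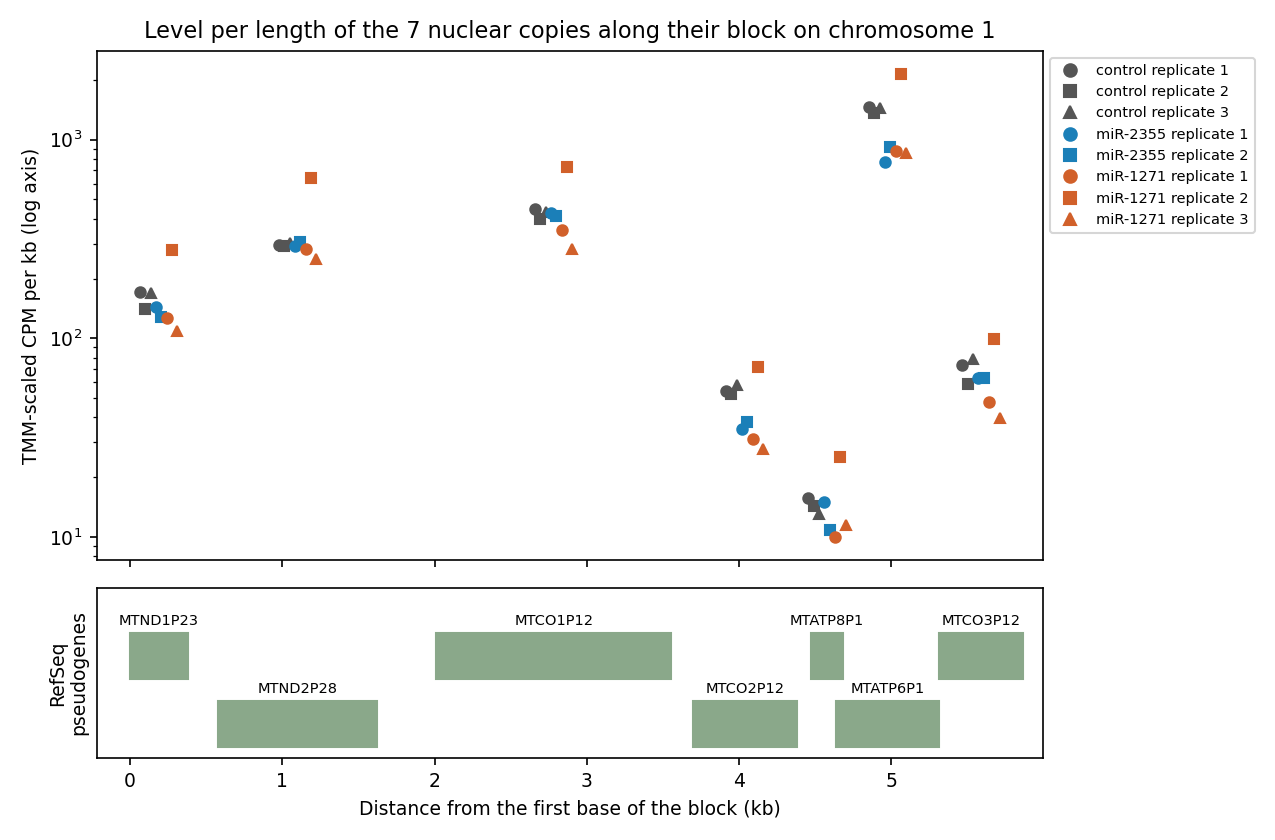
Level per length of the 7 nuclear copies, as TMM-scaled CPM per kilobase on a log axis, against distance from the first base of the block in kilobases; each point is 1 library and the boxes give the extent of each RefSeq pseudogene. MTATP6P1 is highest and MTATP8P1 lowest in all 8 libraries, and miR-1271 replicate 2 is the highest library for each copy.

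One library stood apart in all 7 rows. In miR-1271 replicate 2 each copy was 2.06 to 2.46 times as high as in the higher of the other 2 miR-1271 libraries, on the TMM scale. Of all tested rows, 4.17% lay at least 1.5 times above both other libraries in the same way, and 0.692% (for MTATP6P1) to 1.23% (for MTCO1P12) reached the ratio of the copy itself. The share past 1.5 times was not computed for replicates 1 and 3. Replicate 2 did not stand apart in its total of 10959081 reads or in its TMM factor of 0.924 against 0.935 and 0.964. Nor did it in its Pearson correlations across genes of log2 CPM with the other 2, 0.983 and 0.984 against 0.985 between those 2. Its chi-square per degree of freedom, a measure of count differences beyond sampling noise, was 7.69 with replicate 1 and 17.8 with replicate 3. Between replicates 1 and 3 it was 7.91. The part of replicate 2 in each result is given by fits with and without it. It was singled out by its values in these same 7 rows. Adjusted p-values of the copies in fits without it are therefore descriptions and not independent evidence.

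**Figure D2:**
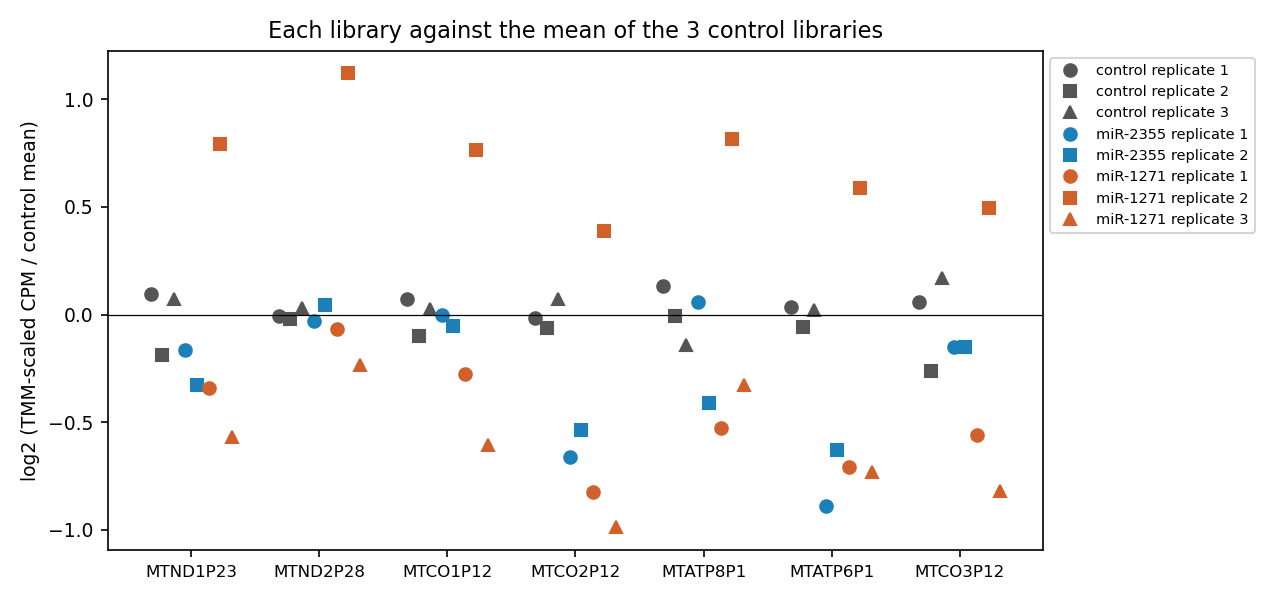
Log2 of the TMM-scaled CPM of each copy over the mean of the 3 control libraries, 1 point per library. The miR-1271 replicate 2 points lie above all others for each copy, at 0.39 to 1.12, and both miR-2355 points lie below the controls for MTCO2P12 and MTATP6P1.

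With miR-2355, the copy of the ATP synthase subunit a gene stood lowest against the control. MTATP6P1 had 994, 930 and 984 CPM in the control libraries and 523 and 626 with miR-2355 (TMM-scaled CPM here and below). Both miR-2355 libraries lay under all 3 controls. The fold change was 0.593 (approximate 95% interval 0.397 to 0.885), a log2 difference of -0.75 ± 0.30 (SE), with an edgeR adjusted p of 0.0647, which did not pass. MTCO2P12, the copy of the second cytochrome c oxidase gene, had 37.1, 36.0 and 39.5 CPM in the controls and 23.7 and 25.9 with miR-2355. Again the groups did not overlap, and the log2 difference of -0.60 ± 0.28 (SE) did not pass (edgeR adjusted p = 0.115).

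The other 5 copies overlapped between these groups. MTCO1P12 had 692, 615 and 670 CPM in the controls and 659 and 635 with miR-2355. MTND2P28 had 308, 306 and 317 CPM in the controls and 304 and 319 with miR-2355, a fold change of 1.005 (approximate 95% interval 0.692 to 1.46). Both rows thus stayed within or near the control range, although the intervals were too wide to show that they did not change. MTND1P23 had 65.2, 53.5 and 64.1 CPM against 54.4 and 48.6, and MTCO3P12 had 40.0, 32.1 and 43.3 against 34.6 and 34.7. MTATP8P1, with 13 to 77 reads per library in the whole study, had 3.26, 2.96 and 2.70 CPM against 3.09 and 2.24.

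In this comparison 0 of the 7 copies were called higher and 0 lower, against 12.3% and 17.5% of all tested rows (29.8% in either direction). At an unadjusted p under 0.05 there were 2 (MTATP6P1 and MTCO2P12), and DESeq2 called 0. The 2 copies without overlap, both lower, compare with 27.8% of all tested rows whose miR-2355 libraries lay under all controls, so their share is near the background, and 0 copies were without overlap on the higher side, against 24.9%. The median log2 difference was -0.17 over the 7 copies and -0.0046 over all rows. Leaving out miR-1271 replicate 2, a library that takes part here only in the filtering, scaling and estimation of spread, gave 2 copies called lower, against 16.7% of all rows, and 0 higher, against 12.8%. The log2 differences were then -0.73 ± 0.15 (SE; edgeR adjusted p = 0.00201) for MTATP6P1 and -0.58 ± 0.13 (SE; adjusted p = 0.0048) for MTCO2P12, so the sizes stayed and the calls changed. Over all 16 alternatives the adjusted p of MTATP6P1 ran from 9.89e-05 to 0.337 and its log2 difference from -0.90 to -0.61.

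With miR-1271, no copy was separated from the controls in all libraries. MTATP6P1 had 594, 1459 and 584 CPM in the 3 miR-1271 libraries, so replicate 2 lay above the control range and the others below it. MTCO2P12 had 21.2, 49.1 and 18.9 CPM, MTCO1P12 544, 1119 and 433, and MTCO3P12 26.1, 54.1 and 21.8. MTND1P23 had 48.1, 106 and 41.1 CPM and MTND2P28 296, 674 and 264. MTATP8P1 had 2.07, 5.24 and 2.37 CPM. In each row replicate 2 was above every control library, and the other 2 were below every control library.

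In this comparison 0 of the 7 copies were called higher and 0 lower with miR-1271, against 17.6% and 22.5% of all tested rows (40.2% in either direction), with 0 at an unadjusted p under 0.05 and 0 by DESeq2. No copy was free of overlap with the controls, against 23.1% of all rows on the higher and 26.8% on the lower side. The log2 differences from the control ran from -0.35 ± 0.25 (SE) for MTCO2P12 to 0.41 ± 0.25 (SE) for MTND2P28 (edgeR adjusted p = 0.283 and 0.204), with a median of 0.08 over the copies and 0.01 over all rows. The interval for MTND2P28 reached from 0.948 to 1.85-fold.

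Without miR-1271 replicate 2, 5 of the 7 copies were lower with miR-1271 than with the control, against 19.4% of all rows in that fit, and 0 were higher, against 14.5%. The copies lie in the same block and were all high in the library left out, so this is not a count of independent rows. MTCO2P12 differed by -0.90 ± 0.14 (SE; edgeR adjusted p = 0.000249), MTATP6P1 by -0.71 ± 0.15 (adjusted p = 0.00224) and MTCO3P12 by -0.69 ± 0.15 (adjusted p = 0.00347). MTND1P23 turned from 0.08 to -0.45 ± 0.14 (adjusted p = 0.0224) and MTCO1P12 from 0.08 to -0.42 ± 0.15 (adjusted p = 0.0438). MTND2P28, at -0.14 ± 0.13 (adjusted p = 0.445), and MTATP8P1, at -0.41 ± 0.30 (adjusted p = 0.312), did not pass. Without replicate 3, which leaves replicate 2 as 1 of 2 libraries, MTND2P28 was instead higher with miR-1271 by 0.66 on the log2 scale (edgeR adjusted p = 0.0422). The sign of the miR-1271 difference turned on leaving out replicate 2 for MTND1P23, MTND2P28, MTCO1P12 and MTATP8P1, whereas MTCO2P12, MTATP6P1 and MTCO3P12 were below 0 with and without it. MTATP6P1 was above 0 without miR-1271 replicate 1 (0.088) and without replicate 3 (0.098), and MTCO3P12 without replicate 3 (0.058). MTCO2P12 stayed below 0 on leaving out any library (-0.90 to -0.083).

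**Figure D3:**
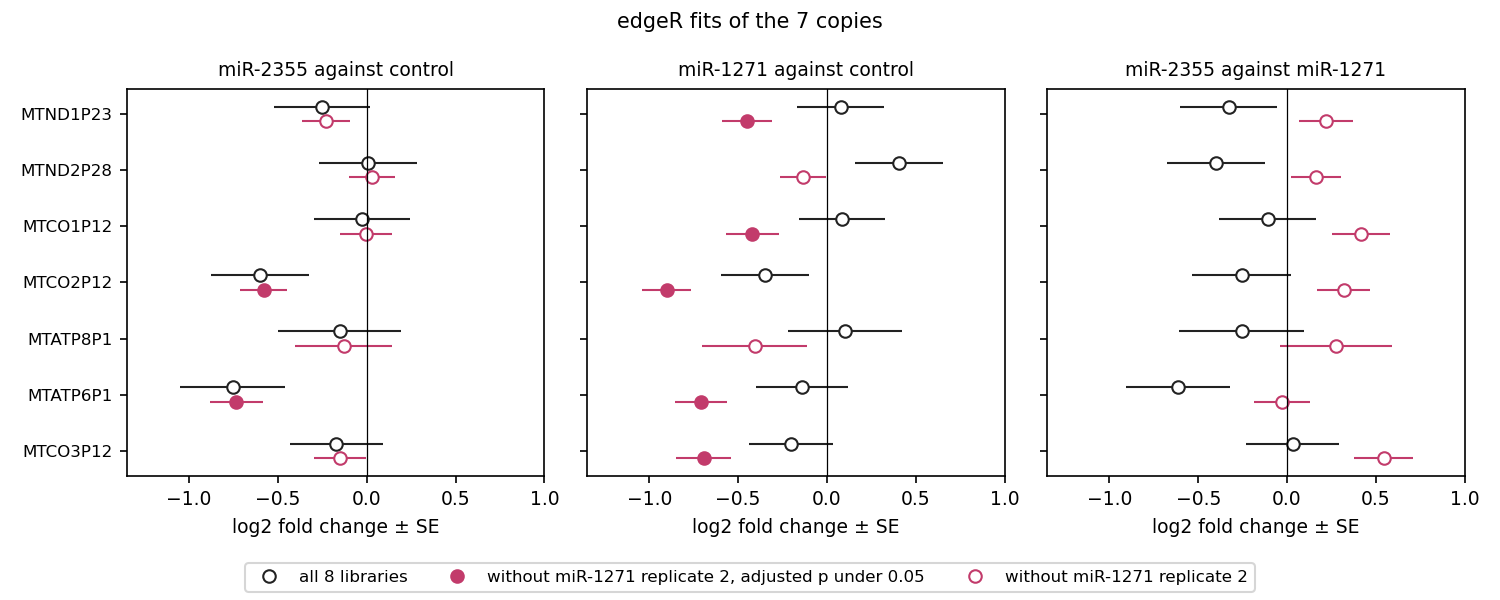
Log2 fold changes ± SE of the 7 copies in the 3 comparisons, from the fit of all 8 libraries and from the fit without miR-1271 replicate 2; filled points have an edgeR adjusted p under 0.05. No point of the full fit is filled, whereas 2 copies against the control with miR-2355 and 5 with miR-1271 are filled, all below 0, without that library. Of all tested rows, 16.7% and 19.4% were called lower in these comparisons of that fit. The library was singled out by its values in these same 7 rows, so the filled points are descriptions and not independent evidence.

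Between the microRNAs, 0 of the 7 copies were called, against 6.15% of all tested rows (3.5% higher and 2.65% lower with miR-2355). No copy was free of overlap, against 21.1% of all rows on the higher and 20.5% on the lower side. None passed at an unadjusted p under 0.05, and DESeq2 called 0. The largest difference was again that of MTATP6P1, at -0.61 ± 0.29 (SE) on the log2 scale for miR-2355 over miR-1271 (edgeR adjusted p = 0.227), and without miR-1271 replicate 2 it was -0.03 ± 0.16 (adjusted p = 0.954). MTCO3P12, at 0.03 ± 0.26 with all libraries, was at 0.54 ± 0.17 without replicate 2 (adjusted p = 0.0953). In that fit too 0 copies were called, against 1.64% of all rows higher and 1.09% lower. The comparisons of the microRNAs with the control share the 3 control libraries, so likeness between them is not independent evidence.

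The reads of the 7 copies were also compared by how they were divided among the copies. This measure does not depend on a library's total or scaling factor, and it was examined after the levels had been seen. No share over all rows goes with it, so separations in it are given as values only. By level, 24.9% of all tested rows were higher and 27.8% lower without overlap for miR-2355 against control. For miR-1271 against control these shares were 23.1% and 26.8%, and for miR-2355 against miR-1271 21.1% and 20.5%. MTATP6P1 took 46.4%, 47.1% and 46.4% of the reads of the 7 copies in the controls. With miR-2355 it took 32.6% and 37.0%, and with miR-1271 38.8%, 42.1% and 42.8%. All 5 microRNA libraries lay under the controls, miR-1271 replicate 2 included. MTND2P28 went the other way, with 14.4%, 15.5% and 14.9% in the controls, 18.99% and 18.9% with miR-2355 and 19.3%, 19.5% and 19.3% with miR-1271. The 3 miR-1271 libraries were thus alike in this share, although the level of MTND2P28 in replicate 2 was 2.28 times that in the next library.

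MTCO1P12 took 32.3%, 31.1% and 31.6% in the controls, 41.1% and 37.5% with miR-2355, and 35.5%, 32.3% and 31.7% with miR-1271, so it was separated from the controls with miR-2355 alone. MTCO2P12 took 1.73%, 1.82% and 1.86% in the controls and was lower in every microRNA library, at 1.48% and 1.53% with miR-2355 and 1.38%, 1.42% and 1.38% with miR-1271. MTCO3P12 took 1.87%, 1.63% and 2.04% in the controls. It took 2.16% and 2.05% with miR-2355, above all controls, and 1.71%, 1.56% and 1.60% with miR-1271, which overlap the controls. The shares of MTND1P23, 2.71% to 3.40% over all 8 libraries, and of MTATP8P1, 0.127% to 0.193%, overlapped in all 3 comparisons. Between the microRNAs, every other copy was without overlap, so this is not particular to MTATP6P1. MTATP6P1 and MTND2P28 were lower with miR-2355 than with miR-1271, and MTCO1P12, MTCO2P12 and MTCO3P12 were higher.

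**Figure D4:**
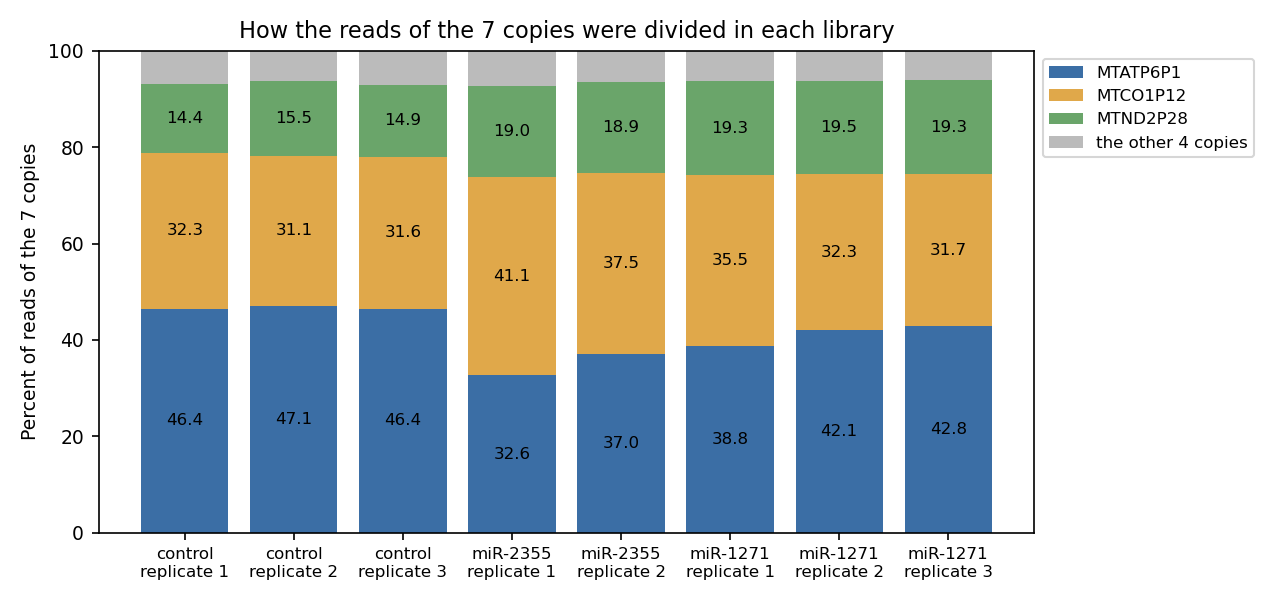
Percent of the reads of the 7 copies that fell on MTATP6P1, MTCO1P12, MTND2P28 and the other 4 copies, 1 stacked bar per library. MTATP6P1 takes 46.4% to 47.1% in the controls and 32.6% to 42.8% in the 5 microRNA libraries, and MTND2P28 14.4% to 15.5% and 18.9% to 19.5%.

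Shares of a whole move together, so each copy was also set against MTCO1P12 alone. The ratio of MTATP6P1 to MTCO1P12 reads was 1.44, 1.51 and 1.47 in the controls, 0.794 and 0.986 with miR-2355 and 1.09, 1.31 and 1.35 with miR-1271. Its mean with miR-2355 was 0.604 times, and with miR-1271 0.848 times, that of the controls. For MTCO2P12 the corresponding factors were 0.673 and 0.739, and both groups lay under all controls. For MTND2P28 the ratio was 0.446, 0.497 and 0.473 in the controls and 0.462 and 0.503 with miR-2355, which overlap. With miR-1271 it was 0.544, 0.603 and 0.610, above all controls. The higher share of MTND2P28 with miR-2355 was therefore not seen against MTCO1P12.

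Against the control, 3 of the 6 ratios were lower without overlap with miR-2355 (MTND1P23, MTCO2P12 and MTATP6P1), where 25.5% of all tested rows were lower in the same ratio, and 0 were higher, against 25.8%. With miR-1271, 3 were lower (MTCO2P12, MTATP6P1 and MTCO3P12), against 12.3%, and MTND2P28 was higher, as 1 of 6 against 5.58%. Between the microRNAs, 3 were lower with miR-2355 (MTND1P23, MTND2P28 and MTATP6P1), against 3.3% of all rows, and MTCO3P12 was higher, as 1 of 6 against 4.95%. With groups of 3 and 3 or 2 and 3 libraries, a two-sided exact permutation test cannot go below p = 0.1 or p = 0.2, so these ratios are given as values with no test. MTCO1P12 was itself 2.06 times as high in miR-1271 replicate 2 as in the next miR-1271 library, and the other copies were high there too. Dividing by MTCO1P12 carries that difference into the ratios of rows that were not likewise high in that library. The ratios of the copies in replicate 2 lay near those of the other miR-1271 libraries, for MTND2P28 at 0.603 against 0.544 and 0.610. The background shares were lower in the comparisons with miR-1271 than in miR-2355 against control. The part of the denominator in these shares was not tested, so nothing is read from the copies' counts against them.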

How the data were processed

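The authors deposited raw read counts per Ensembl gene ID in 1 table with 1 column per library, mapped to samples by column name. BWA, featureCounts, hg38 and GRCh38 are named in the submitters' processing notes, without versions. The sources used here do not give the annotation release, the strand setting, or how the mitochondrial genome, multiply placed reads and overlapping genes were handled. Near-identical rows can share reads. All 8 columns were used. Counts were fitted with edgeR 4.0.16 in R 4.3.3 (filterByExpr, TMM, glmQLFit with 1 mean per group over all 8 libraries, glmQLFTest) and adjusted over all 17351 rows. Standard errors were computed as |log2 fold change| over √F, and the approximate intervals follow from them. DESeq2 1.42.0, other scalings, no filter, a replicate block and fits without each library were alternatives. Positions and lengths come from RefSeq (GRCh38.p14), matched by symbol for all 44 rows. The RefSeq table holds no Ensembl IDs, so the lists of nuclear genes for mitochondrial RNA and respiration, the cell type markers and the seed search were not run. The 44 rows, lists and tests were chosen with earlier results of these data known. All 44 rows could be named, by rule. Replicates of a group differed by more than sampling noise (chi-square per degree of freedom 5.61 to 18.6). Limits on 0 reads reflect counting error alone: no molecular identifiers are described, so PCR copies may be counted.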

Additional observations from a re-analysis of the deposited data

How the results depend on the processing

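The zeros of the mitochondrial rows cannot change under these alternatives and are not a test of them. Of 336 alternative values for single copies, 320 kept the side of the threshold, 14 passed it and 2 passed it with the sign turned, both without miR-1271 replicate 2 (miR-1271 against control: MTND1P23 at -0.45 and MTCO1P12 at -0.42, with highest values on leaving out 1 library of 0.34 and 0.35). Copies lower with miR-2355 than with the control numbered 0 with all libraries, 1 with library totals alone, 2 with no filter, 2 when only these groups were fitted, 1 with the replicate block and 0 to 2 on leaving out 1 library. With miR-1271, 1 copy was higher with no filter, and 0 to 1 were higher and 0 to 5 lower on leaving out 1 library. Between the microRNAs, 1 was lower with miR-2355 with no filter (MTATP6P1, edgeR adjusted p = 0.0138), and 0 on leaving out any library. For miR-2355 against control, the SE of MTATP6P1 was 0.295 with all libraries and 0.147 without miR-1271 replicate 2. The cause of these changes in calls was not tested. The labels do not say that equal replicate numbers pair libraries. Deviations of the 7 same-numbered pairs correlated at -0.103 to 0.0185, and those of differently numbered pairs at -0.0972 to 0.103. They were taken from group means, so the deviations of the 2 miR-2355 libraries mirror each other. Each same-numbered value with miR-2355 is thus the negative of a differently numbered one, and the ranges cannot decide on pairing. Whether libraries were paired is therefore not known. The replicate block moved the calls over all rows from 5171 to 4046 for miR-2355 against control. Over TMM-effective totals the share of reads in the copies was 0.208% in the controls, 0.165% with miR-2355 and 0.212% with miR-1271, so that the miR-1271 mean lay above the control mean and not below it as over plain totals. Over plain totals, on leaving out 1 library, it ran from 0.215% to 0.220% in the controls, 0.161% to 0.177% with miR-2355 and 0.137% to 0.232% with miR-1271. Library totals alone and upper-quartile factors moved the median log2 difference of all rows for miR-1271 to -0.14 and 0.103. The planned ratios of copy to mitochondrial gene, and the added read in both, had no measured denominator and were not run. MTATP8P1, with 13 to 77 reads per library, is the copy most limited by depth.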
